A study of Homo sapiens with 12 samples.

Results

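The genes described here are 38 genes, of 20003 in the deposited table, that carry out or report the response to scarce amino acids under the transcription factor ATF4. They were taken from a list of gene names that was chosen with earlier results of these data known. By role they were divided into 10 enzymes of amino acid synthesis, 4 mitochondrial enzymes of folate metabolism, 8 amino acid transporters and 16 stress regulators. RNA was sequenced from PC9, HCC827 and H1975, 3 established lines of human non-small-cell lung cancer, with a control vector or with overexpression of ZNF263, a zinc finger protein. There were 2 libraries per line and genotype, 12 in all, and every group had been taken through stepwise osimertinib, an inhibitor of the receptor kinase EGFR, and kept in DMEM. The titles attach OR to each line's name, which the labels do not explain. Separate cultures for the libraries of a group are not stated, and p-values therefore measure the spread between libraries, part of which may be technical.

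When amino acids run short or the endoplasmic reticulum is stressed, kinases phosphorylate the translation factor eIF2alpha, most protein synthesis slows, and the ATF4 messenger is translated more. ATF4 pairs with C/EBP proteins on a short DNA element and raises genes that make, import and spare amino acids. DDIT3, TRIB3 and CHAC1 belong to the same programme, and DDIT4 and SESN2 restrain the growth kinase complex mTORC1. Since ATF4 is controlled largely by translation, its mRNA level is not a measure of its protein, which was not measured here.

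Promoter windows from RefSeq (GRCh38.p14), from 250 bases before to 50 bases after the annotated start, were matched for 30 of the 38 genes. They are shown because the genes are known for a shared element and because ZNF263 is itself a DNA-binding protein. The letters TGATGNAA, the core of the C/EBP-ATF response element, were searched on both strands and stood in 6 of the 30 windows (20%), against 3.67% of 27305 promoters of the same length. In the windows that follow, printed 5′ to 3′ on the gene's strand, capitals mark those letters or their reverse complement, and each window is cut to 30 bases where it overlaps an exon of a GENCODE 29 gene model. For 23 of the 30 genes, the bases after the RefSeq start were found in a GENCODE transcript of the gene. The printed windows lie upstream of the RefSeq start of ASNS (chr7:97872458-97872487, minus strand, first capital at -68), MTHFD1L (chr6:150866346-150866375, plus strand, at -129) and CHAC1 (chr15:40953251-40953280, plus strand, at -209). Each overlaps an exon of a GENCODE model, so the offsets hold for the RefSeq start only.
ASNS: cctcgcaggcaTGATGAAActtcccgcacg
MTHFD1L: gccgccggctcTGATGCAAtcgcgccgggc
CHAC1: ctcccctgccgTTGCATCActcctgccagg
The same letters were found in the windows of FGF21 at -54, SLC7A1 at 8 and SLC3A2 at 38. The longer form TGATGCAAT, which always contains TGATGNAA, stood in 2 windows, those of MTHFD1L and FGF21 (6.67% of members against 0.264% of all promoters). TGACGTCA, the cyclic AMP response element, stood in 0 of the 30 windows against 1.98% of all promoters.

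GGAGGAGG, letters of the G-rich sequence that ZNF263 is known to bind, stood in 7 of the 30 windows (23.3%) against 10.4% of all promoters: PHGDH, MTHFD1L, SLC6A9, ATF5, DDIT3, CEBPB and FGF21. Matches may overlap each other, and none of them overlaps a TGATGNAA match. Capitals mark the match, or its reverse complement in DDIT3, in windows of PHGDH (chr1:119711814-119711843, plus strand), SLC6A9 (chr1:44031597-44031656, minus strand) and DDIT3 (chr12:57520711-57520764, minus strand). They lie over an exon of a GENCODE model, outside the GENCODE gene and in an intron of a GENCODE model, in that order.
PHGDH: cagagccgcgaGGAGGAGGcggagtcgcgg
SLC6A9: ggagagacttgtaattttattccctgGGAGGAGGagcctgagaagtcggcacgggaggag
DDIT3: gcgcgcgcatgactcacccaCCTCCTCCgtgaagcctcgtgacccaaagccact
These matches are descriptions of the sequence, and binding was not measured.

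ZNF263 itself checked the labels: its FPKM was 9.55 and 9.11 in the PC9 controls against 39.3 and 38.98 with ZNF263, 13.2 and 11.8 against 19.6 and 19.8 in HCC827, and 10.2 and 9.63 against 39.1 and 39.8 in H1975. HCC827 therefore carried the smallest rise (0.62 on the log2 scale, limma adjusted p = 4.17e-05, against 1.96 and 1.89 in PC9 and H1975, adjusted p = 2.83e-09 and 5.95e-11). FPKM are fragments scaled by gene length and library size. Library totals are not given, and whole reads recovered from the value steps put the members between 0 reads (FGF21) and 53997 reads (SLC7A5) in a library. Of the defining epithelial markers, EPCAM stood at no more than 0.414 FPKM in any PC9 library, where CDH1 was 8.05 and 7.97 against 16.3 and 17.5, and KRT19 was listed at 0 in both PC9 controls. Whether the libraries labelled PC9 hold that line was not tested. The summed level of 9 epithelial markers in PC9 was 2786 and 2810 FPKM against 4192 and 3958, with 3 of the 9 called higher. In HCC827 it was 4285 and 3810 FPKM against 3421 and 3660, with 2 called lower and 1 higher. In H1975 the epithelial sum was 4294 and 4292 FPKM against 1932 and 1915, with EPCAM at 219.9 and 229.6 against 31.2 and 32.2; 8 of the 9 were lower. The summed level of 9 fibroblast markers in H1975 was 30.9 and 34.3 against 179.9 and 176, most of it COL1A2 (14.01 and 15.1 against 169 and 164), while COL3A1 reached at most 0.349; of 5 fibroblast markers tested there, 3 were higher and 2 lower, down to -1.33 on the log2 scale. PTPRC, which defines immune cells, stayed at or under 0.0458 FPKM in every library. The 10 immune markers together reached 89.8 and 88.7 FPKM against 86.9 and 81.1 in H1975, most of it CD68 (83.1 and 80.9 against 62.9 and 59.98), with 2 of 3 tested lower and 1, CD14, higher (2.40). They summed to 44.4 and 43.5 against 38.3 and 32.6 FPKM in HCC827, with 1 of 3 lower, and to at most 3.94 FPKM in PC9. The 7 endothelial markers together stayed at or under 0.855. The part of these marker shifts in the results on any line was not tested, and in bulk RNA fewer cells of a type and less RNA per cell cannot be told apart.

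The amino acid stress genes moved in a different pattern in each line. Of 37 genes tested, 12 fell and 2 rose in PC9, 29 fell and 1 rose in HCC827, and 13 fell and 19 rose in H1975 (limma on log2(FPKM + 1), adjusted p under 0.05). Over all genes tested, 4.12% fell and 7.21% rose in PC9, 6.44% fell and 13.0% rose in HCC827, and 32.1% fell and 32.1% rose in H1975. Median log2 changes of the members were -0.15, -0.44 and 0.16 in PC9, HCC827 and H1975, against 0, 0.045 and 0.0025 over all genes. The share of members that fell, 78.4% in HCC827 and 32.4% in PC9, lay above the background there. In H1975 35.1% lower lay near the background and 51.4% higher lay above it. Because the members were chosen with earlier results of these data known, shares above the background are not independent support. FGF21, a stress hormone, had 0 or 1 read in each library and was not tested. In HCC827 the split of all called genes moved with scaling: 66.9% of them were higher as deposited, 45% after median-of-ratios scaling and 50.3% after quantile normalization, while the members' median was -0.51 and -0.49 under those.

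**Figure D1:**
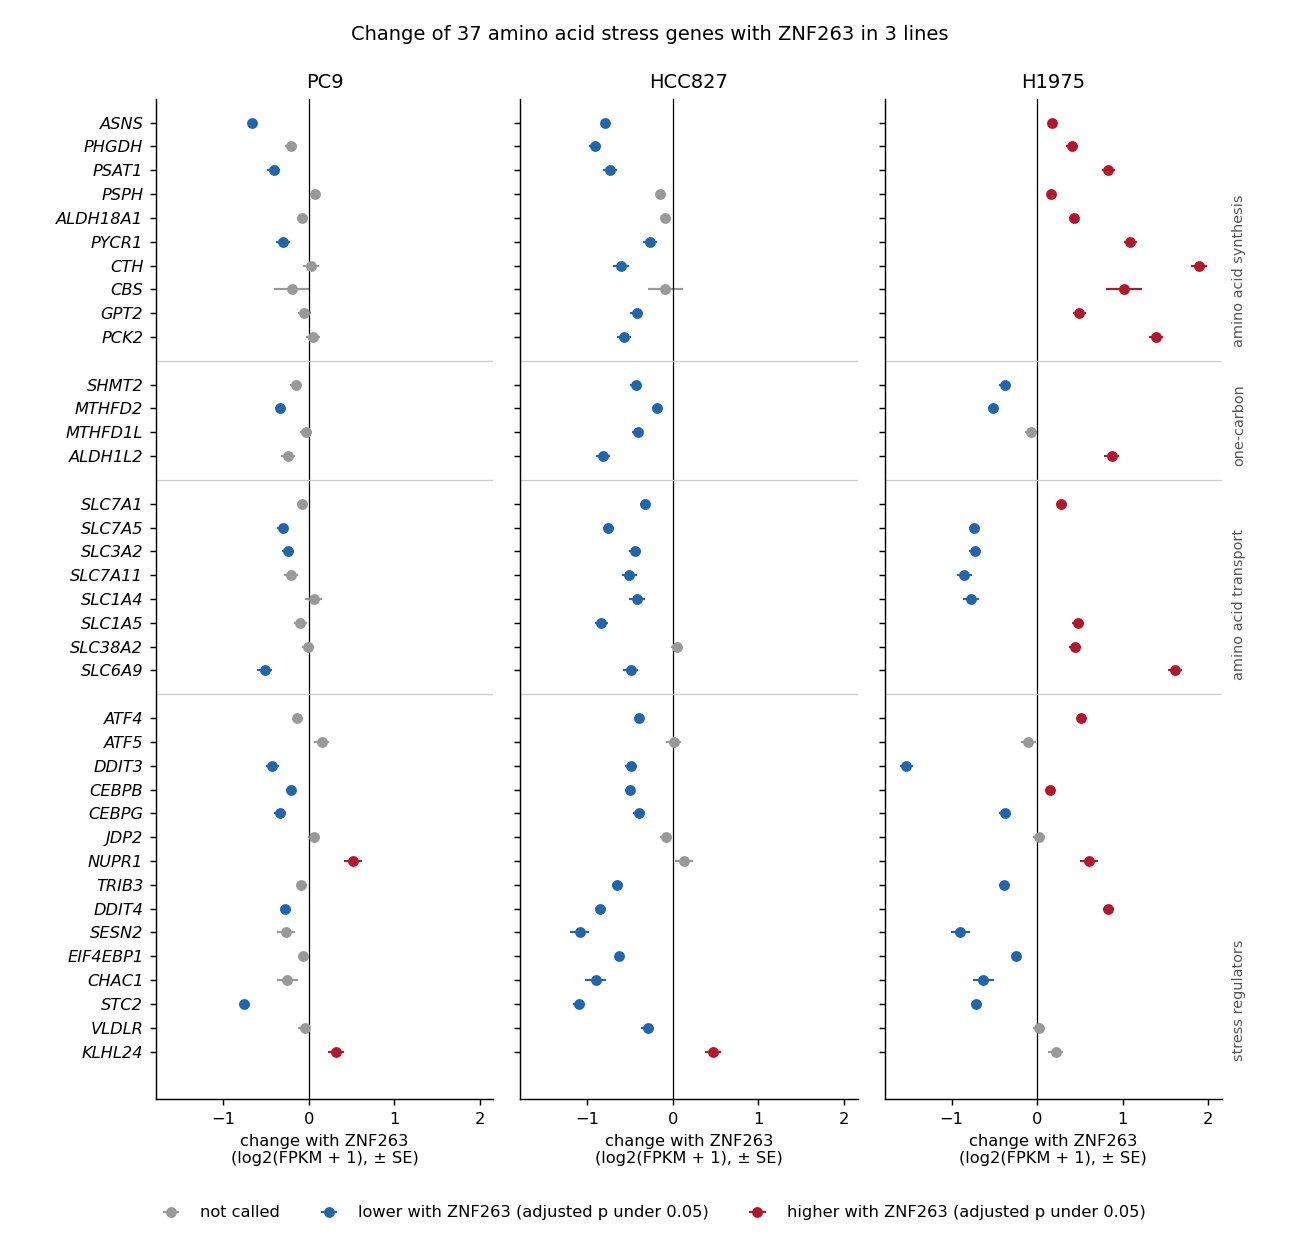
Log2 change with ZNF263 of the 37 tested genes in each line (x axis, log2(FPKM + 1), bars are the SE of the limma fit), grouped by role and coloured by call. HCC827 holds 29 genes called lower, and in H1975 all 10 synthesis enzymes are called higher.

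Calls in PC9 were the least stable. In the fit on the 4 PC9 libraries alone 2 members were lower and 1 was higher, and 7, 5 or 6 members were lower without control replicate 1, control replicate 2 or ZNF263 replicate 1. Only ASNS and STC2 kept their PC9 call in all 19 other settings run, against 21 of 30 called members in HCC827 and 26 of 32 in H1975. Fits on a line's own 4 libraries gave 21 lower members in HCC827, and 13 lower and 19 higher in H1975. The shares of all genes called belong to the main fit, on all 12 libraries as deposited. Counts in the other settings are therefore not set against a background.

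Enzymes of amino acid synthesis divided the lines most plainly: 3 of 10 fell in PC9 and none rose, 7 fell and none rose in HCC827, and all 10 rose in H1975. Median log2 changes were -0.13, -0.50 and 0.66. Of all genes, 4.12% fell in PC9, 6.44% fell in HCC827 and 32.1% rose in H1975. Levels are given as the control libraries against the ZNF263 libraries. FPKM levels of PC9 are not on 1 scale with those of the other lines, and levels set across lines are descriptions. ASNS, which makes asparagine, stood at 28.3 and 30.1 against 18.6 and 17.7 FPKM in PC9, 36.5 and 35.1 against 20.4 and 20.1 in HCC827, and 20.99 and 20.5 against 23.7 and 23.5 in H1975. ASNS fell in the first pair of lines and rose in H1975, with log2 changes in PC9, HCC827 and H1975 of -0.66, -0.79 and 0.18 (SE 0.0537 in each line, limma adjusted p = 6.84e-06, 3.84e-06 and 0.0111). The ZNF263 libraries of H1975 lay only just above the controls, and that call was lost without H1975 control replicate 2 (0.16, adjusted p = 0.0674) or ZNF263 replicate 1 (0.17, adjusted p = 0.0577).

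The serine pathway runs from PHGDH through PSAT1 to PSPH. PHGDH, the first enzyme, stood at 11.4 and 11.3 against 10.1 and 9.35 FPKM in PC9, 21.9 and 19.1 against 10.7 and 10.2 in HCC827, and 8.22 and 8.25 against 11.3 and 11.2 in H1975. PHGDH fell in HCC827 and rose in H1975, with log2 changes in PC9, HCC827 and H1975 of -0.204, -0.91 and 0.404 (SE 0.0704 in each line, limma adjusted p = 0.0847, 6.31e-06 and 0.000238). HCC827 controls held the most PHGDH, and the ZNF263 libraries of HCC827 came down to near the other lines. PSAT1, the aminotransferase of the second step, stood at 66.4 and 75.3 against 50.6 and 55.4 FPKM in PC9, 76.01 and 84.6 against 45.3 and 50.4 in HCC827, and 49.8 and 46.97 against 85.4 and 88.4 in H1975. PSAT1 fell in PC9 and HCC827 and rose in H1975, with log2 changes in PC9, HCC827 and H1975 of -0.41, -0.74 and 0.83 (SE 0.0773 in each line, limma adjusted p = 0.00421, 6.40e-05 and 8.80e-07). All ZNF263 libraries of H1975 lay above every PSAT1 value of the other lines. The PC9 call of PSAT1 was lost without PC9 control replicate 2 (-0.32, adjusted p = 0.0735) or ZNF263 replicate 1 (-0.35, adjusted p = 0.0579).

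Enzymes of proline and cysteine synthesis rose in H1975 as well. PYCR1, the last enzyme of proline synthesis, stood at 39.8 and 41.8 against 33.1 and 32.8 FPKM in PC9, 68.8 and 56.2 against 53.4 and 49.5 in HCC827, and 22.99 and 24.9 against 52.6 and 51.5 in H1975. PYCR1 fell in PC9 and HCC827 and rose in H1975, with log2 changes in PC9, HCC827 and H1975 of -0.299, -0.27 and 1.09 (SE 0.0804 in each line, limma adjusted p = 0.0307, 0.0339 and 1.01e-07). Both H1975 ZNF263 libraries held more than 2 times the control level. The groups were apart in each line. The PC9 call was lost without any 1 of the 4 PC9 libraries (log2 changes from -0.33 to -0.26, adjusted p from 0.0911 to 0.206), and the HCC827 call without HCC827 control replicate 1 (-0.13, adjusted p = 0.222), either HCC827 ZNF263 library or either PC9 control (adjusted p from 0.0506 to 0.222 over these 5). Without HCC827 control replicate 2 the change of PYCR1 there was -0.41, adjusted p = 0.00175. CTH, which releases cysteine from cystathionine, stood at 1.04 and 0.7902 against 1.07 and 0.837 FPKM in PC9, 56.99 and 60.1 against 36.5 and 39.6 in HCC827, and 3.38 and 2.84 against 13.6 and 14.8 in H1975. CTH fell in HCC827 and rose in H1975, with log2 changes in PC9, HCC827 and H1975 of 0.0288, -0.61 and 1.89 (SE 0.0931 in each line, limma adjusted p = 0.917, 0.000815 and 2.34e-09). HCC827 held by far the most CTH in both groups, PC9 the least, and only the PC9 groups overlapped. CBS, which forms cystathionine, stood at 2.102 and 1.45 against 1.17 and 1.68 FPKM in PC9, 0.224 and 0.302 against 0.197 and 0.1798 in HCC827, and 0.704 and 1.04 against 1.81 and 4.03 in H1975. CBS rose in H1975 on low levels, with log2 changes in PC9, HCC827 and H1975 of -0.19, -0.0874 and 1.01 (SE 0.209 in each line, limma adjusted p = 0.6401, 0.815 and 0.000905); the H1975 ZNF263 libraries differed from each other, and without ZNF263 replicate 2 the change was 0.59, adjusted p = 0.00691. HCC827 held only 11 to 18 CBS reads per library, and CBS shares reads with the near-identical copy CBSL, so its values are uncertain.

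GPT2 and PCK2 feed carbon through mitochondria to alanine and to phosphoenolpyruvate. GPT2, the mitochondrial alanine aminotransferase, stood at 6.53 and 6.55 against 6.76 and 5.85 FPKM in PC9, 25.6 and 23.7 against 18.9 and 17.4 in HCC827, and 9.53 and 9.86 against 13.7 and 14.4 in H1975. GPT2 fell in HCC827 and rose in H1975, with log2 changes in PC9, HCC827 and H1975 of -0.049, -0.42 and 0.49 (SE 0.0737 in each line, limma adjusted p = 0.762, 0.00187 and 6.99e-05). PCK2, the mitochondrial phosphoenolpyruvate carboxykinase, stood at 10.5 and 11.4 against 11.5 and 11.2 FPKM in PC9, 12.9 and 11.1 against 7.704 and 7.801 in HCC827, and 6.17 and 5.22 against 16.8 and 16.2 in H1975. Like GPT2, PCK2 fell in HCC827 and rose in H1975, with log2 changes in PC9, HCC827 and H1975 of 0.0483, -0.57 and 1.39 (SE 0.0828 in each line, limma adjusted p = 0.801, 0.000612 and 1.37e-08). The groups of both enzymes were apart in HCC827 and in H1975 and overlapped in PC9. PSPH, which releases free serine, and ALDH18A1, which starts proline synthesis, were called in H1975 only, with log2 changes of 0.16 and 0.43 (limma adjusted p = 0.0127 and 4.55e-05). The call of PSPH was lost without H1975 control replicate 1 (0.13, adjusted p = 0.101) or either H1975 ZNF263 library (0.16, adjusted p = 0.05203, and 0.16, adjusted p = 0.0591).

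**Figure D2:**
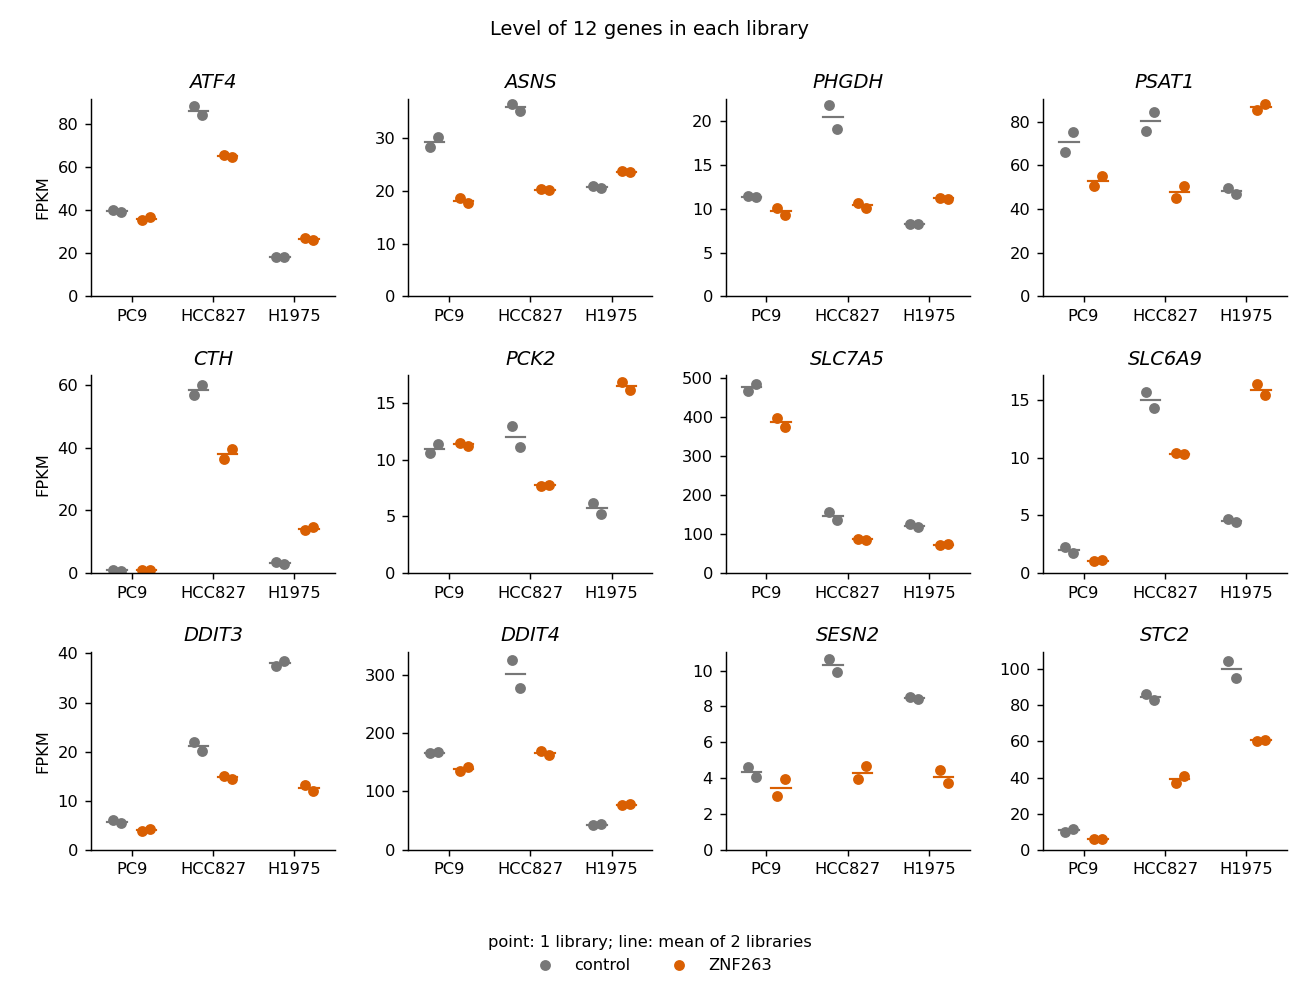
FPKM (y axis, from 0) of 12 genes in each of the 12 libraries, by line and genotype; points are libraries and short lines the mean of 2. CTH, PCK2 and SLC6A9 are higher with ZNF263 in H1975 and lower in HCC827, whereas SLC7A5, DDIT3 and STC2 are lower in all 3 lines.

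The 4 folate enzymes, which handle carbon units carried on folate inside mitochondria, all fell in HCC827. In PC9 1 fell, and in H1975 2 fell and 1 rose. Median log2 changes were -0.20, -0.42 and -0.23 in PC9, HCC827 and H1975. Of all genes, 4.12% fell in PC9, 6.44% fell in HCC827, and 32.1% fell and 32.1% rose in H1975. SHMT2, which splits serine into glycine and a carbon unit, stood at 49.9 and 53.1 against 47.7 and 44.8 FPKM in PC9, 134 and 118 against 91.1 and 94.5 in HCC827, and 114 and 112 against 85.99 and 86.8 in H1975. SHMT2 fell in HCC827 and H1975, with log2 changes in PC9, HCC827 and H1975 of -0.15, -0.43 and -0.38 (SE 0.0625 in each line, limma adjusted p = 0.155, 0.000577 and 0.000147). Its H1975 call was lost, and the sign turned, with the median change of the 20 nearest tested genes on each side (its chromosome neighbours) taken off. MTHFD2, the dehydrogenase of the pathway, stood at 83.5 and 85.5 against 63.7 and 69.8 FPKM in PC9, 49.3 and 50.4 against 43.9 and 43.4 in HCC827, and 45.8 and 45.97 against 31.8 and 31.6 in H1975. MTHFD2 was lower in every line, with log2 changes in PC9, HCC827 and H1975 of -0.34, -0.19 and -0.52 (SE 0.0518 in each line, limma adjusted p = 0.00105, 0.0232 and 1.68e-06), and its groups did not overlap anywhere. In H1975 its chromosome neighbours had a median change of -0.32. MTHFD2 less that median was -0.197, limma adjusted p = 0.00563. With neighbours taken off, the median of the 4 folate enzymes in H1975 was -0.029. The MTHFD2 call in HCC827 was lost without either HCC827 ZNF263 library (-0.197, adjusted p = 0.0898, and -0.18, adjusted p = 0.0951). ALDH1L2, which oxidises formyl-folate, stood at 3.15 and 2.91 against 2.24 and 2.57 FPKM in PC9, 6.41 and 7.19 against 3.23 and 3.61 in HCC827, and 1.45 and 1.64 against 3.64 and 3.66 in H1975. Unlike MTHFD2, it rose in H1975 while falling in HCC827, with log2 changes in PC9, HCC827 and H1975 of -0.24, -0.82 and 0.87 (SE 0.0839 in each line, limma adjusted p = 0.08500, 5.19e-05 and 1.25e-06). MTHFD1L, which yields formate, fell in HCC827 (-0.41, limma adjusted p = 0.00129) and was not called in PC9 (-0.0303) or H1975 (-0.0732).

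**Figure D3:**
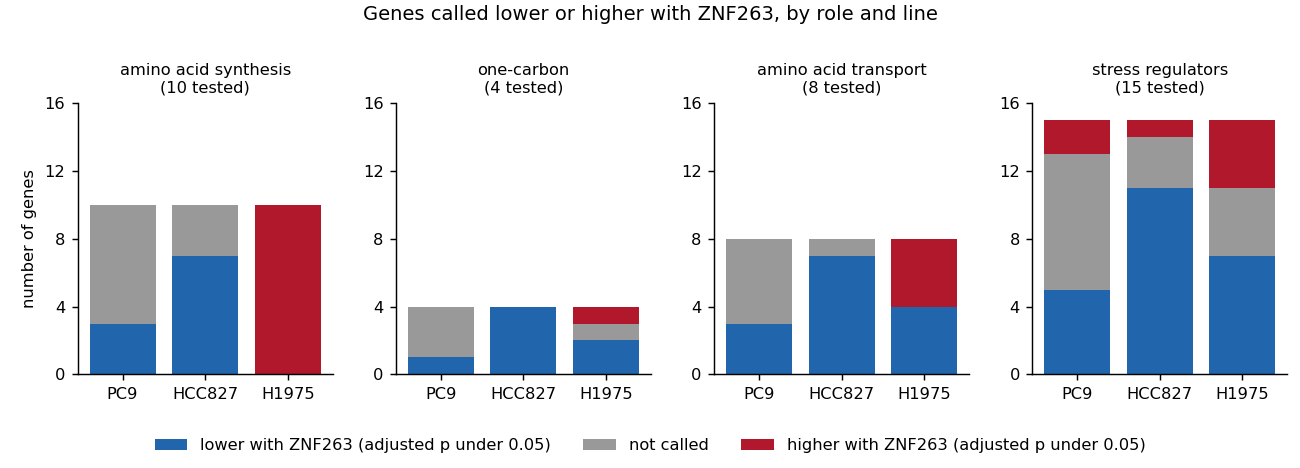
Number of genes (y axis) called lower, called higher or not called with ZNF263 in each line, 1 panel per role. In H1975 all 10 synthesis enzymes are called higher, whereas 4 of 8 transporters and 7 of 15 stress regulators are called lower. Of all genes tested there, 32.1% are called lower and 32.1% higher.

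Of 8 transporters, 4 fell and 4 rose in H1975, where 32.1% of all genes fell and 32.1% rose. In PC9 3 fell and in HCC827 7 fell, against 4.12% and 6.44% of all genes, and none rose in either. SLC7A5, the transport subunit of the exchanger for large neutral amino acids such as leucine, stood at 467 and 486 against 398 and 374 FPKM in PC9, 157 and 137 against 87.5 and 85.3 in HCC827, and 125 and 118 against 70.6 and 73.9 in H1975. SLC7A5 was lower in each line, with log2 changes in PC9, HCC827 and H1975 of -0.302, -0.76 and -0.74 (SE 0.0654 in each line, limma adjusted p = 0.00986, 1.46e-05 and 5.63e-07). SLC3A2, the glycoprotein that carries SLC7A5 and SLC7A11 to the membrane, stood at 289 and 284 against 249.6 and 236 FPKM in PC9, 129.8 and 109 against 87.05 and 88.05 in HCC827, and 134 and 132 against 76.6 and 83.4 in H1975. SLC3A2 too was lower in each line, with log2 changes in PC9, HCC827 and H1975 of -0.24, -0.44 and -0.73 (SE 0.07103 in each line, limma adjusted p = 0.0494, 0.00117 and 1.39e-06). Neither gene's groups overlapped in any line. In PC9 both calls were thin: SLC7A5 was not called without control replicate 2 (-0.27, adjusted p = 0.105) or ZNF263 replicate 2 (-0.26, adjusted p = 0.0867), and SLC3A2 without any 1 of the 4 PC9, the 4 H1975 or the 2 HCC827 ZNF263 libraries (adjusted p from 0.0572 to 0.233).

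SLC7A11, the exchanger that imports cystine, stood at 64.2 and 62.5 against 54.5 and 55.03 FPKM in PC9, 5.92 and 7.53 against 4.53 and 4.25 in HCC827, and 5.95 and 5.93 against 2.71 and 2.99 in H1975. SLC7A11 fell in HCC827 and H1975, with log2 changes in PC9, HCC827 and H1975 of -0.21, -0.51 and -0.85 (SE 0.0851 in each line, limma adjusted p = 0.152, 0.00141 and 1.74e-06). PC9 held far more SLC7A11 than the other lines, and its groups were apart without a call. SLC1A4, a carrier of alanine, serine and cysteine, stood at 2.47 and 2.98 against 2.89 and 2.86 FPKM in PC9, 5.58 and 5.92 against 4.098 and 3.99 in HCC827, and 7.498 and 7.48 against 3.47 and 4.52 in H1975. SLC1A4 fell in the same pair of lines, with log2 changes in PC9, HCC827 and H1975 of 0.0605, -0.42 and -0.77 (SE 0.0975 in each line, limma adjusted p = 0.784, 0.0101 and 1.52e-05), and its HCC827 call was lost without either HCC827 ZNF263 library (-0.44, adjusted p = 0.0545, and -0.404, adjusted p = 0.0541).

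SLC1A5, the main glutamine carrier, stood at 109 and 117 against 108 and 103 FPKM in PC9, 56.6 and 47.9 against 30.1 and 27.3 in HCC827, and 64.8 and 64.5 against 90.1 and 90.4 in H1975. SLC1A5 fell in HCC827 and rose in H1975, with log2 changes in PC9, HCC827 and H1975 of -0.095, -0.84 and 0.48 (SE 0.0732 in each line, limma adjusted p = 0.479, 1.56e-05 and 8.62e-05). SLC7A1, which imports arginine and lysine, stood at 26.2 and 27.6 against 26.2 and 24.6 FPKM in PC9, 28.3 and 27.7 against 23.1 and 21.2 in HCC827, and 8.49 and 8.09 against 10.1 and 10.5 in H1975. SLC7A1 followed SLC1A5 in direction with smaller changes, with log2 changes in PC9, HCC827 and H1975 of -0.0786, -0.33 and 0.28 (SE 0.06205 in each line, limma adjusted p = 0.493, 0.00315 and 0.00143). Its H1975 call was lost with chromosome neighbours taken off. SLC6A9, a glycine transporter, stood at 2.24 and 1.72 against 1.04 and 1.12 FPKM in PC9, 15.7 and 14.3 against 10.4 and 10.3 in HCC827, and 4.68 and 4.39 against 16.4 and 15.4 in H1975. SLC6A9 fell in PC9 and HCC827 and rose in H1975, with log2 changes in PC9, HCC827 and H1975 of -0.51, -0.495 and 1.61 (SE 0.0863 in each line, limma adjusted p = 0.00194, 0.00187 and 5.05e-09). The H1975 ZNF263 libraries held more than 3 times the SLC6A9 of their controls, a level like that of the HCC827 controls. SLC38A2, which imports small neutral amino acids, was called in H1975 only (0.44, limma adjusted p = 0.000119), with changes of -0.00514 in PC9 and 0.0444 in HCC827.

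Among the 15 stress regulators tested, 5 fell and 2 rose in PC9, 11 fell and 1 rose in HCC827, and 7 fell and 4 rose in H1975. Of all genes, 4.12% fell and 7.21% rose in PC9, 6.44% and 13.0% in HCC827, and 32.1% each way in H1975. ATF4, the regulator of the programme, stood at 39.8 and 39.3 against 35.2 and 36.6 FPKM in PC9, 87.96 and 83.97 against 65.4 and 64.6 in HCC827, and 18.4 and 18.3 against 26.9 and 26.2 in H1975. ATF4 fell in HCC827 and rose in H1975, with log2 changes in PC9, HCC827 and H1975 of -0.14, -0.398 and 0.51 (SE 0.0489 in each line, limma adjusted p = 0.0985, 0.000188 and 1.22e-06). The groups were apart in each line, with a narrow gap in PC9. The H1975 call of ATF4 was lost once the median change of its chromosome neighbours was taken off (0.093, adjusted p = 0.123). ATF5, a related factor translated in the same way, stood at 10.4 and 10.6 against 12.8 and 10.7 FPKM in PC9, 4.63 and 4.22 against 4.37 and 4.52 in HCC827, and 15.02 and 13.6 against 12.95 and 13.5 in H1975. ATF5 was called in no line, with log2 changes in PC9, HCC827 and H1975 of 0.15, 0.00676 and -0.103 (SE 0.0829 in each line, limma adjusted p = 0.296, 0.9700 and 0.299).

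DDIT3, or CHOP, the factor tied to death under lasting stress, stood at 6.004 and 5.39 against 3.77 and 4.201 FPKM in PC9, 22.02 and 20.2 against 15.00 and 14.5 in HCC827, and 37.5 and 38.5 against 13.2 and 11.9 in H1975. DDIT3 was lower in each line and most in H1975, with log2 changes in PC9, HCC827 and H1975 of -0.43, -0.49 and -1.53 (SE 0.0751 in each line, limma adjusted p = 0.00274, 0.000827 and 2.25e-09). In H1975 DDIT3 fell where ATF4 was called higher, an ATF4 call that was lost with chromosome neighbours taken off. The control level of DDIT3 in H1975, the highest of the lines, came down to between 11.9 and 13.2 FPKM. TRIB3, a pseudokinase that feeds back on ATF4, stood at 20.8 and 21.2 against 21.1 and 18.5 FPKM in PC9, 48.7 and 44.6 against 29.6 and 29.1 in HCC827, and 48.04 and 48.3 against 36.5 and 36.7 in H1975. TRIB3 fell in HCC827 and H1975, with log2 changes in PC9, HCC827 and H1975 of -0.0852, -0.65 and -0.39 (SE 0.0634 in each line, limma adjusted p = 0.463, 3.74e-05 and 0.000143). CHAC1, which breaks down glutathione, stood at 0.451 and 0.389 against 0.181 and 0.2095 FPKM in PC9, 4.05 and 2.65 against 1.31 and 1.28 in HCC827, and 1.78 and 1.68 against 0.926 and 0.614 in H1975. CHAC1 fell in the same lines, with log2 changes in PC9, HCC827 and H1975 of -0.25, -0.904 and -0.63 (SE 0.124 in each line, limma adjusted p = 0.245, 0.000411 and 0.000624), on 20 to 54 reads per library in PC9. With a pseudocount of 0.1 CHAC1 was called in PC9 as well (-0.82, adjusted p = 0.0291).

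CEBPB and CEBPG belong to the C/EBP factors that can pair with ATF4 on DNA. CEBPB stood at 58.3 and 55.8 against 49.5 and 49.4 FPKM in PC9, 51.3 and 47.8 against 35.1 and 34.2 in HCC827, and 59.4 and 54.2 against 64.9 and 61.1 in H1975. CEBPB fell in PC9 and HCC827 and rose slightly in H1975, with log2 changes in PC9, HCC827 and H1975 of -0.203, -0.502 and 0.15 (SE 0.0593 in each line, limma adjusted p = 0.04503, 0.000139 and 0.0446). Its PC9 call was lost without any 1 of 8 libraries, all PC9 libraries and the ZNF263 libraries of the other lines (adjusted p from 0.0575 to 0.2496), and its H1975 call without any 1 of 8 libraries, among them H1975 control replicate 2 (0.0819, adjusted p = 0.348), H1975 ZNF263 replicate 1 (0.104, adjusted p = 0.259), all PC9 libraries and the HCC827 ZNF263 libraries. CEBPG stood at 23.5 and 23.4 against 17.2 and 19.7 FPKM in PC9, 12.5 and 12.9 against 9.51 and 9.28 in HCC827, and 9.301 and 9.900 against 6.89 and 7.397 in H1975. CEBPG was lower in each line by nearly the same amount, with log2 changes in PC9, HCC827 and H1975 of -0.33, -0.396 and -0.38 (SE 0.0698 in each line, limma adjusted p = 0.00844, 0.00199 and 0.000363). The PC9 call of CEBPG was lost without control replicate 1 (-0.33, adjusted p = 0.0618), control replicate 2 (-0.33, adjusted p = 0.0679) or ZNF263 replicate 1 (-0.24, adjusted p = 0.103). JDP2, a repressor of the same protein class, was called in no line, with log2 changes of 0.0663, -0.0809 and 0.0221.

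Among genes that restrain mTORC1 or translation, DDIT4 rose and SESN2 and EIF4EBP1 fell in H1975, where 32.1% of all genes moved each way. DDIT4 stood at 166 and 167 against 134 and 141 FPKM in PC9, 325 and 277 against 169 and 162 in HCC827, and 42.5 and 43.3 against 76.7 and 77.4 in H1975. DDIT4 fell in PC9 and HCC827 and rose in H1975, with log2 changes in PC9, HCC827 and H1975 of -0.27, -0.85 and 0.83 (SE 0.0652 in each line, limma adjusted p = 0.0169, 6.10e-06 and 1.80e-07). SESN2, a leucine sensor, stood at 4.62 and 4.05 against 2.98 and 3.94 FPKM in PC9, 10.7 and 9.94 against 3.97 and 4.66 in HCC827, and 8.51 and 8.43 against 4.46 and 3.71 in H1975. SESN2 fell in HCC827 and H1975, with log2 changes in PC9, HCC827 and H1975 of -0.26, -1.09 and -0.901 (SE 0.111 in each line, limma adjusted p = 0.157, 4.85e-05 and 1.18e-05). EIF4EBP1, which binds the cap factor eIF4E, stood at 84.7 and 84.2 against 82.8 and 78.9 FPKM in PC9, 162 and 152 against 101 and 102 in HCC827, and 113 and 114 against 96.3 and 94.5 in H1975. Like SESN2 it fell in HCC827 and H1975, with log2 changes in PC9, HCC827 and H1975 of -0.0634, -0.63 and -0.25 (SE 0.0485 in each line, limma adjusted p = 0.477, 6.25e-06 and 0.000515). The ZNF263 libraries of H1975 thus held more DDIT4 and less SESN2 than either control. The PC9 call of DDIT4 was lost without control replicate 1 (-0.27, adjusted p = 0.0942), control replicate 2 (-0.27, adjusted p = 0.113) or ZNF263 replicate 1 (-0.24, adjusted p = 0.131).

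STC2, a secreted glycoprotein made under stress, stood at 10.1 and 11.3 against 6.07 and 5.78 FPKM in PC9, 86.1 and 83.1 against 37.1 and 40.8 in HCC827, and 105 and 95.4 against 60.3 and 60.9 in H1975. STC2 was lower in each line, with log2 changes in PC9, HCC827 and H1975 of -0.75, -1.100 and -0.71 (SE 0.0681 in each line, limma adjusted p = 1.63e-05, 2.35e-06 and 1.15e-06), and kept its call in every setting run. NUPR1, a small chromatin protein of stressed cells, stood at 3.395 and 2.38 against 4.52 and 4.54 FPKM in PC9, 3.93 and 3.35 against 4.09 and 4.06 in HCC827, and 2.97 and 2.85 against 4.99 and 4.93 in H1975. NUPR1 rose in PC9 and H1975, with log2 changes in PC9, HCC827 and H1975 of 0.52, 0.13 and 0.61 (SE 0.106 in each line, limma adjusted p = 0.00675, 0.415 and 0.000233). KLHL24, an adaptor for ubiquitin ligases, stood at 0.867 and 0.834 against 1.28 and 1.34 FPKM in PC9, 2.93 and 3.69 against 5.29 and 4.59 in HCC827, and 3.82 and 3.91 against 4.495 and 4.81 in H1975. KLHL24 rose in PC9 and HCC827, with log2 changes in PC9, HCC827 and H1975 of 0.32, 0.47 and 0.22 (SE 0.0905 in each line, limma adjusted p = 0.0402, 0.00369 and 0.0529), and its H1975 groups were apart without a call. NUPR1 was not called in PC9 without control replicate 2 (0.33, adjusted p = 0.0816) or ZNF263 replicate 1 (0.52, adjusted p = 0.0511), nor KLHL24 without any 1 of the 4 PC9 or the 4 H1975 libraries (adjusted p from 0.0524 to 0.197). VLDLR, a lipoprotein receptor, fell in HCC827 (-0.296, limma adjusted p = 0.0164), which was lost without either HCC827 ZNF263 library (-0.28, adjusted p = 0.0956, and -0.31, adjusted p = 0.0549).

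Across lines, 6 of the 37 members were lower in each line, against 0.499% of all genes tested in the 3 lines: MTHFD2, SLC7A5, SLC3A2, DDIT3, CEBPG and STC2. Another 6 fell in PC9 and HCC827 and rose in H1975, against 0.221% of all genes: ASNS, PSAT1, PYCR1, SLC6A9, CEBPB and DDIT4. A further 8 fell in HCC827 and rose in H1975 without a call in PC9, against 1.57% of all genes: PHGDH, CTH, GPT2, PCK2, ALDH1L2, SLC7A1, SLC1A5 and ATF4. So 14 members were called lower in HCC827 and higher in H1975, against 1.93% of all genes. Some of these placements were thin. The H1975 calls of ATF4 and SLC7A1 were lost with chromosome neighbours taken off. Of the 19 other settings, SLC3A2 kept its PC9 call in 3 and PYCR1 its HCC827 call in 10. CEBPB kept its PC9 call in 6 and its H1975 call in 8. Since the members were chosen with earlier results of these data known, these comparisons with all genes are descriptions only.

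The change itself was then compared between lines in 1 fit. An F test found a difference for 33 of 37 members, against 60.3% of all genes tested; ATF5, CEBPG, JDP2 and KLHL24 were not called (limma adjusted p = 0.181, 0.822, 0.409 and 0.237). HCC827 differed from PC9 for 17 members, each with the lower change in HCC827, against 9.60% of all genes in either direction. H1975 differed from PC9 for 27 members (10 lower and 17 higher, 54.1% of all genes) and from HCC827 for 29 (5 lower and 24 higher, 53.7% of all genes). CTH (2.497, adjusted p = 1.24e-08), SLC6A9 (2.105, adjusted p = 2.84e-08) and PCK2 (1.96, adjusted p = 3.67e-08) had the largest differences between H1975 and HCC827 among the members. For STC2 and SLC7A5 the changes in H1975 and HCC827 differed by 0.39 (limma adjusted p = 0.00436) and 0.0189 (limma adjusted p = 0.881).

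**Figure D4:**
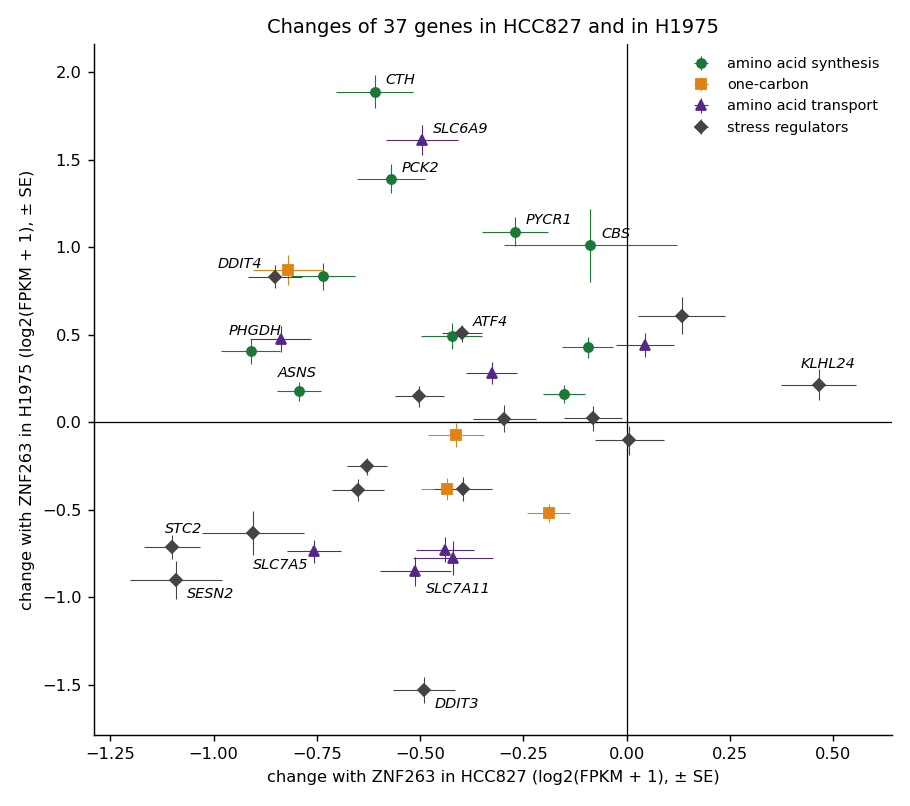
Log2 change with ZNF263 in HCC827 (x axis) against that in H1975 (y axis) for the 37 tested genes, with the SE of the limma fit, by role. The synthesis enzymes lie above 0 in H1975 and below 0 in HCC827, and DDIT3, SESN2 and STC2 lie below 0 in both.

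In the mean of the 3 lines 19 members were lower and 7 higher, against 23.9% and 28.9% of all genes. STC2 (-0.85 ± 0.0393, adjusted p = 5.84e-09), DDIT3 (-0.82 ± 0.0434, adjusted p = 1.78e-08) and SESN2 (-0.75 ± 0.0638, adjusted p = 1.06e-06) had the lowest mean log2 changes, given with their SE. ATF4 had a mean change of -0.00851 ± 0.0282, adjusted p = 0.821, the average of opposite changes in HCC827 and H1975.

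Each member was also set against its chromosome neighbours, by the median change of the 20 nearest tested genes on each side. These medians ran from -0.073 to 0.066 around members in PC9, from -0.060 to 0.14 in HCC827 and from -0.40 to 0.42 in H1975. ATF4 (chr22:39519695-39522685, plus strand, GENCODE 29 on GRCh38) had the highest: the median change of its neighbours was 0.42, and ATF4 less that median was 0.093, adjusted p = 0.123. SLC7A1 less its neighbours was 0.0489, adjusted p = 0.526. SHMT2 (chr12:57229327-57234935, plus strand) and DDIT3 (chr12:57516588-57521737, minus strand) lie close together, and their neighbours stood at -0.400 and -0.37. SHMT2 less its neighbours was 0.0196, adjusted p = 0.8096, whereas DDIT3 less its neighbours was still -1.16, adjusted p = 3.51e-08. For ASNS (chr7:97852118-97872542, minus strand) the neighbours stood at -0.38, and the gene less its neighbours was 0.56, adjusted p = 1.62e-06. With neighbours taken off, 29 of the 32 calls in H1975 held, those of ATF4, SLC7A1 and SHMT2 did not, and ATF5, JDP2, VLDLR and KLHL24 were called as well. In PC9 12 of 14 calls held, and those of SLC3A2 and CEBPB were lost (limma adjusted p = 0.0658 and 0.118). In HCC827 29 of 30 held, that of PYCR1 was lost (limma adjusted p = 0.0501), and PSPH was called as well. Copy number was not measured, and its part was not tested.

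**Figure D5:**
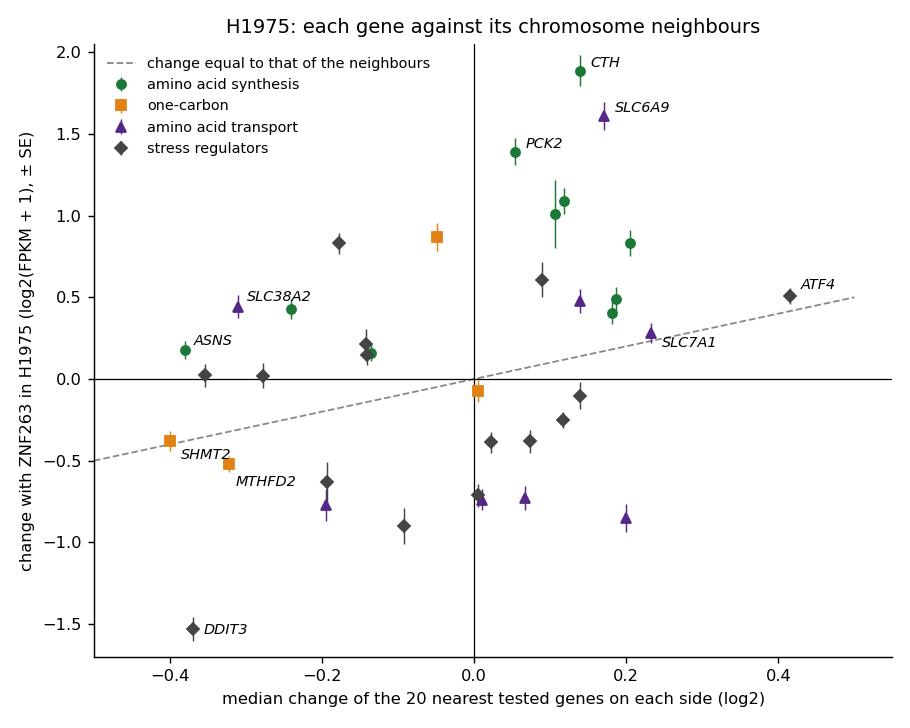
Log2 change with ZNF263 in H1975 (y axis, with the SE of the limma fit) against the median change of the 20 nearest tested genes on each side (x axis); the dashed line marks equality. SHMT2, SLC7A1 and ATF4 lie by the line, whereas CTH, SLC6A9 and PCK2 lie far above it and DDIT3 far below.

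Other genes of the pathway were taken from lists of names, and their counts stand against the same shares of all genes as above: 4.12% lower and 7.21% higher in PC9, 6.44% and 13.0% in HCC827, and 32.1% each way in H1975. Of 10 kinases, phosphatase subunits and activators around eIF2alpha, 0 were called in PC9 with limma (1 at an unadjusted p under 0.05), 1 fell in HCC827, and 3 fell and 4 rose in H1975, near the background. PPP1R15A, the stress-induced subunit that removes the phosphate from eIF2alpha, fell in HCC827 (21.99 and 22.4 against 15.7 and 18.03 FPKM; -0.38, limma adjusted p = 0.00197) and in H1975 (38.7 and 36.6 against 17.7 and 16.6 FPKM; -1.09, adjusted p = 1.71e-08). EIF2AK3, the kinase PERK of the endoplasmic reticulum, rose in H1975 (8.296 and 8.83 against 14.7 and 14.5 FPKM; 0.705, adjusted p = 2.31e-05), where EIF2AK2, the kinase PKR, fell (-0.74, adjusted p = 4.61e-06). Less their chromosome neighbours, the H1975 changes of EIF2AK3 and EIF2AK2 were 0.64 and -0.31.

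Cytosolic aminoacyl-tRNA synthetases, which charge tRNAs and include known ATF4 targets, were tested in full in PC9 only, since 18 of 20 had no value in the other lines under the names listed. There 5 of 20 fell and none rose, led by MARS1 (72.8 and 70.7 against 59.7 and 59.2 FPKM; -0.27, limma adjusted p = 0.0137), CARS1 (-0.25, adjusted p = 0.0355) and NARS1 (-0.25, adjusted p = 0.0391). FARSA fell in HCC827 (-0.33, adjusted p = 0.004903) and rose in H1975 (0.31, adjusted p = 0.00119). The chromosome neighbours of FARSA in H1975 had a median change of 0.52. FARSA less that median was lower there (-0.21, limma adjusted p = 0.0171).

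Among 12 further stress genes linked to ATF4, 3 fell and 1 rose in PC9, 4 fell in HCC827, and 4 fell and 4 rose in H1975. GDF15, a secreted stress hormone, fell in H1975 from 36.8 and 38.6 FPKM to 10.7 and 10.1 (-1.76, limma adjusted p = 1.04e-09) and fell in PC9 (-0.39, adjusted p = 0.00686). ATF3, a partner factor, fell in HCC827 (-0.49, adjusted p = 0.0153) and H1975 (-1.09, adjusted p = 5.93e-06). HERPUD1, a factor in disposal of misfolded proteins, fell in PC9 (-0.52, adjusted p = 9.40e-05), and CEBPD rose in PC9 (0.58, adjusted p = 1.93e-05) and H1975 (1.002, adjusted p = 4.83e-09). NFIL3 (-0.41, adjusted p = 0.00252) and SQSTM1 (-0.32, adjusted p = 0.00187) also fell in HCC827.

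Of 14 amino acid enzymes tested outside the 38, 1 fell and 3 rose in PC9, 2 fell and 1 rose in HCC827, and 5 fell and 4 rose in H1975. BCAT1, which transaminates leucine, isoleucine and valine, stood at 15.1 and 15.2 against 10.8 and 11.7 FPKM in PC9, 12.6 and 14.5 against 9.04 and 9.97 in HCC827 and 2.08 and 1.88 against 12.5 and 13.6 in H1975. It fell in PC9 (-0.395, limma adjusted p = 0.007097) and HCC827 (-0.47, adjusted p = 0.00187) and rose in H1975 (2.24, adjusted p = 1.46e-10). ASS1, which joins citrulline and aspartate on the way to arginine, rose in PC9 (0.97, adjusted p = 1.93e-05) and H1975 (2.18, adjusted p = 4.96e-10).

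Of 11 further folate enzymes tested, 3 rose in PC9, 3 rose in HCC827, and 4 fell and 7 rose in H1975; SHMT1, the cytosolic counterpart of SHMT2, rose in PC9 (0.35, limma adjusted p = 0.003596). Of 10 further transporters tested, 1 fell and 1 rose in PC9, 1 rose in HCC827, and 1 fell and 4 rose in H1975, where SLC43A1 (1.34, adjusted p = 5.92e-07) and SLC36A4 (1.01, adjusted p = 1.47e-07) rose and SLC43A2 fell (-0.77, adjusted p = 4.60e-06). Of 15 genes that report amino acids to mTORC1, 1 rose in PC9, 1 rose in HCC827, and 4 fell and 4 rose in H1975. SESN3, a paralog of SESN2, rose in HCC827 (0.38, adjusted p = 0.00638) and fell in H1975 (-1.26, adjusted p = 2.98e-08), where CASTOR1, an arginine sensor, rose (1.12, adjusted p = 9.88e-06).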

How the data were processed

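RNA-seq was analysed from 12 libraries, 2 for each of 3 lines and 2 genotypes, grouped by the cell line and genotype labels. The authors deposited FPKM values for each library. The genome build was GRCh38.p13, per the submitters' processing notes. The aligner, counting tool, annotation and strand setting were not named there (not given in the sources used here). RNA was extracted with TRIZOL and libraries made with a SMARTER mRNA-seq kit, per the labels' protocols. Of 20030 entries, 27 whose names had become calendar dates were left out. HCC827 held no value for 3383 genes and H1975 for 3339, PC9 for 0, and levels set across lines are descriptions. The reads behind an FPKM value did not keep 1 proportion between PC9 and HCC827. In control replicate 1, MTHFD2 had 3597 reads at 83.5 FPKM in PC9 and 3943 reads at 49.3 FPKM in HCC827. NUPR1 had 61 reads at 3.395 FPKM in PC9 and 379 reads at 3.93 FPKM in HCC827. FPKM levels of PC9 are therefore not on 1 scale with those of the other lines.

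Values were analysed as log2(FPKM + 1), on which the change of low genes is understated. A gene was kept where 2 or more libraries reached 1 FPKM, and 6 group means were fitted with limma 3.58.1 (R 4.3.3, eBayes with trend), with the spread shared by all groups. P-values are two-sided and Benjamini-Hochberg adjusted over all genes tested in a contrast, with calls at 0.05. The fit was checked on simulated data. The F test covers the differences between the 3 within-line changes. Reads per gene were recovered from the FPKM steps within a line (tolerance 0.001 read), with whole reads found for 99.7%, 99.4% and 98.1% of 1000 genes in PC9, HCC827 and H1975, looking up to 20000 reads. Up to 2000 reads they were found for 82.3%, 87.3% and 67.3%, and for 0% of shuffled values. These reads describe depth only; the total count per library is unknown. Positions came from GENCODE 29, with 19228 genes placed, and promoter windows from RefSeq.

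Values per library are given for 31 members: those called in 2 or more lines, those called with a log2 change of at least 0.5 in size in any line, and ATF4, ATF5, DDIT3, ASNS, PHGDH and TRIB3. The other 7 are given by counts and changes. Of each pathway list at most the 3 called genes with the largest changes in a line are named. The members and lists were chosen with earlier results of these data known. Alternatives were a fit on a line's 4 libraries alone, a pseudocount of 0.1, no filter, median-of-ratios scaling, quantile normalization, a replicate block, changes less those of chromosome neighbours, and leaving out each library.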

Additional observations from a re-analysis of the deposited data

Results flagged for a closer look

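The change with ZNF263 differed between the 3 lines for 33 of the 37 genes tested, by an F test in the limma fit; 60.3% of all genes passed the same test. The value after each gene is the limma adjusted p. Among enzymes of amino acid synthesis these were ASNS (5.67e-07), PHGDH (8.50e-07), PSAT1 (2.49e-07), PSPH (0.005400), ALDH18A1 (0.000265), PYCR1 (5.28e-07), CTH (2.42e-08), CBS (0.005799), GPT2 (3.12e-05) and PCK2 (8.30e-08). Among the folate enzymes they were SHMT2 (0.0295), MTHFD2 (0.00562), MTHFD1L (0.00708) and ALDH1L2 (3.71e-07). Transporters that differed were SLC7A1 (0.000224), SLC7A5 (0.00136), SLC3A2 (0.00331), SLC7A11 (0.00174), SLC1A4 (0.000693), SLC1A5 (1.19e-06), SLC38A2 (0.00334) and SLC6A9 (2.20e-08). The stress regulators were ATF4 (7.08e-07), DDIT3 (2.60e-06), CEBPB (9.24e-05), NUPR1 (0.0309), TRIB3 (0.000511), DDIT4 (4.05e-08), SESN2 (0.00139), EIF4EBP1 (4.69e-05), CHAC1 (0.01797), STC2 (0.00648) and VLDLR (0.0464). With the changes of chromosome neighbours taken off, 33 members also passed the F test, and the share of all genes passing in that setting is not given. The part of the lower epithelial marker levels of H1975 in these differences was not tested.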

How the results depend on the processing

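The counts in HCC827 (lower), H1975, the mean of the lines and the F test stayed within 1.5 times of their values in each other setting run for them. In PC9 the 12 members lower became 2 in the fit on the line's 4 libraries alone and ranged from 5 to 16 when 1 library was left out. The 2 members higher in PC9 became 1 in that fit, without a filter, with quantile normalization and with the replicate block, and ranged from 0 (limma, without PC9 control replicate 2 or ZNF263 replicate 1) to 2 when 1 library was left out. The 1 member higher in HCC827, KLHL24, was lost in the fit on that line's 4 libraries alone (0 higher; KLHL24 0.47, adjusted p = 0.0826), and 1 to 2 were higher when 1 library was left out. Taking off chromosome neighbours turned SHMT2 in H1975 to 0.0196, adjusted p = 0.8096; the cause of the shared shift was not tested.

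With the replicate block, 11 members were lower and 1 higher in PC9, 29 and 1 in HCC827, 13 and 19 in H1975, 20 and 8 in the mean of the lines, and 31 differed by the F test. Shares of all genes under the block are not given, so these counts describe stability only. The deviations of same-numbered libraries had correlations of 0.037, 0.089 and -0.043 in PC9, HCC827 and H1975, so the numbers were not taken to pair the libraries. Among tested members, depth was lowest for CBS in HCC827 (11 to 18 reads per library) and CHAC1 in PC9 (20 to 54 reads), neither of them called. Their changes on the log2(FPKM + 1) scale are understated, and CHAC1 in PC9 was called with a pseudocount of 0.1 (-0.82, limma adjusted p = 0.0291). Calls on few reads included CHAC1 in HCC827 (42 to 136 reads) and NUPR1 in PC9 (45 to 78 reads).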
